A study of Mus musculus with 48 samples.

Results

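Livers taken on day 5 of a course of lipopolysaccharide (LPS, an outer membrane lipid of Gram-negative bacteria that innate immune receptors recognise) were compared with livers taken on day 3 of the same course. The 6 libraries, 3 on each day, were chosen by their labels (LPS, day 3 or day 5, ZT21) from the 48 of the series, and every gene with enough counts was compared, 16101 of the 29331 listed. All 6 came from male wild-type mice during an administration that ran for 7 consecutive days, and all were labelled ZT21, 21 h after lights on. Negative control (NC) livers of male wild-type mice without LPS, taken on day 7 every 4 h from ZT1 to ZT21 with 3 libraries a time, gave the reference levels, and LPS livers of days 7, 9 and 11 at ZT21 entered the same fit to estimate the spread. The labels used here give neither strain, age nor dose, and NC livers of day 3 or day 5 were not analysed here, so days under LPS and other effects of time cannot be told apart. Replicates are labelled biological, without a statement that each came from its own animal, and the p-values therefore measure the spread between these libraries.

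As background, LPS is sensed by Toll-like receptor 4 with its co-receptor CD14, in liver above all on the resident macrophages called Kupffer cells, and cytokines from these cells drive hepatocytes to make acute-phase proteins such as serum amyloid A and orosomucoid. Hepatocytes also turn surplus carbohydrate into fatty acids: pyruvate kinase and ATP citrate lyase supply the carbon, fatty acid synthase builds the chain, and elongases and desaturases finish it, under the transcription factors SREBP-1c and ChREBP. Both programmes vary over the day in mouse liver, where CLOCK and BMAL1 switch on the Per, Cry and Rev-erb genes whose products shut them off again.

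The 6 libraries held 35.2 to 38.2 M counts each, within the range of 28.2 to 45.3 M over the series. Mitochondrially encoded genes took 8.05 to 10.1% of the counts and the 20 most abundant genes 23.6 to 28.8%. Replicates 1 and 2 lay closer to each other than to replicate 3, with a median chi-square value per gene of 2.28 on day 3 and 1.73 on day 5 against at least 4.34 and 5.2 for the pairs that include replicate 3. Counting noise alone gives 0.455, so no pair was a single library deposited under 2 names. Read from 19 core clock genes placed on the 24 h curves of the NC livers, the libraries labelled ZT21 did not stand at 21 h on either day. The clock reading was 6.5, 6.4 and 7.5 h on day 3 and 1.0, 0.7 and 3.6 h on day 5, whereas the NC livers of ZT21 read 20.5, 21 and 21.9 h. Whether the LPS livers were collected at the labelled time was not tested, and a difference in collection time cannot be told apart from an effect of LPS in any comparison with NC livers of ZT21. Every comparison between these days is therefore also a comparison of livers whose clock genes read nearest to different points of the NC cycle. The parts of the days and of the clock position in a change cannot be told apart.

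Between day 3 and day 5 most lipogenesis genes rose, most macrophage marker genes fell, and 5 of 35 acute-phase genes fell. In the quasi-likelihood test of edgeR, with p-values adjusted by Benjamini-Hochberg over all genes tested, 951 of 16101 genes passed at an adjusted p of at most 0.05, which is 5.91%. Of these 513 were higher on day 5 (3.19% of genes tested) and 438 were lower (2.72%). Every count of list members given below is to be read beside these 2 shares, and a count of 1 or 2 in a list can lie near them. The median log2 change over all genes tested was 0.00121, and among the genes that passed the median absolute change was 0.88. At least a doubling was reached by 156 of the genes that rose, and a fall by at least as much by 264 of those that fell. The counts moved with single libraries: 453 genes passed without day 3 replicate 1, 427 without day 3 replicate 2, 461 without day 5 replicate 1, 337 without day 5 replicate 2 and 1491 without day 5 replicate 3. The share of calls that were higher was 53.9%, but 41.5% without day 3 replicate 1, 47.4% from the 6 libraries alone, and 37.0% with replicates 1 and 2 of each day summed into a single library. A naming rule took 136 genes, of which 110 passed, and 32 of these passed in every fit run.

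**Figure D1:**
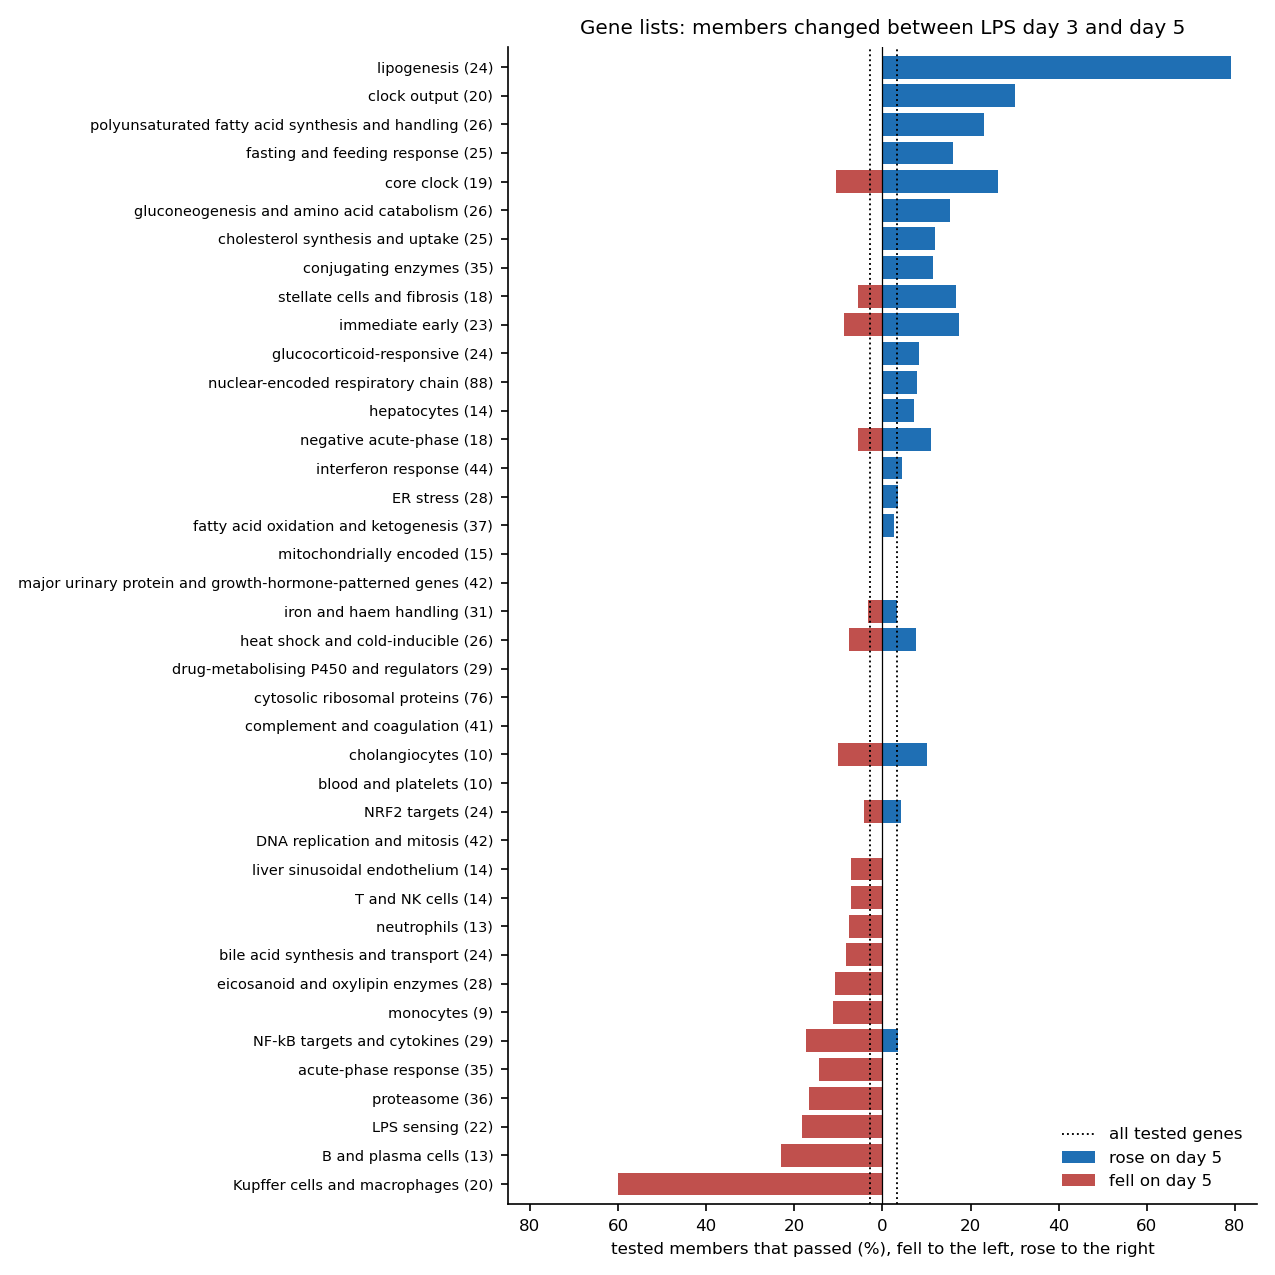
Share of the tested members of each gene list that passed, in percent, with members that fell drawn to the left and members that rose to the right. The number of tested members stands in parentheses, the dotted lines mark all tested genes (3.19% rose, 2.72% fell), and lipogenesis (19 of 24 rose) and the macrophage list (12 of 20 fell) extend farthest.

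Genes of fatty acid synthesis rose together on day 5. Of 24 lipogenesis genes tested, 19 rose and none fell, beside 3.19% of all genes that rose, and their median log2 change was 1.82. The summed level of the list went from between 5441 and 6191 CPM (counts relative to the scaled size of each library) on day 3 to between 29910 and 38450 CPM on day 5, and stood between 17540 and 20140 CPM in NC livers of ZT21. Scd1 alone gave 13710, 15530 and 19510 CPM of the day 5 sums of 34450, 38450 and 29910 CPM. The sum therefore weighs this gene heavily, above all in replicate 3. The count of members that rose depended on the libraries: it was 8 without day 3 replicate 1, 6 without day 3 replicate 2, 10 without day 5 replicate 1 and 8 without day 5 replicate 2. With replicates 1 and 2 of each day summed into a single library, 4 members rose.

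Pklr encodes the liver pyruvate kinase, the last step of glycolysis (GRCm38 chromosome 3, 89136142 to 89146784). It measured 233, 203 and 102 CPM on day 3 and 923, 1079 and 717 CPM on day 5. The groups did not overlap, and day 3 lay below the NC mean of 586 ± 76.5 CPM (mean ± SD, n = 3) while day 5 lay above it. The log2 change was 2.34 ± 0.25 (adjusted p = 0.000122), where the error is the standard error of the fit. Scd1, the desaturase that makes oleate from stearate (GRCm38 chromosome 19, 44394455 to 44407879), measured 1816, 1475 and 1154 CPM on day 3 and 13710, 15530 and 19510 CPM on day 5. All day 5 libraries were above all day 3 libraries, and day 3 was also below NC (9383 ± 1285 CPM; adjusted p = 0.00136). Scd1 rose by 3.45 ± 0.49 (adjusted p = 0.00111). Thrsp, a small protein that promotes lipogenesis (GRCm38 chromosome 7, 97412938 to 97417730), measured 105, 75.5 and 152 CPM on day 3 and 1236, 1427 and 866 CPM on day 5. Again the days were separate, and the rise was 3.41 ± 0.44 (adjusted p = 0.000683). Tkt, the transketolase of the pentose phosphate pathway, measured 104, 95.4 and 114 CPM on day 3 and 223, 253 and 196 CPM on day 5 without overlap, a rise of 1.10 ± 0.15 (adjusted p = 0.000683). Pklr, Scd1, Thrsp and Tkt passed in every fit run.

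Several other enzymes were lower in replicate 3 of day 5 than in replicates 1 and 2. Elovl6, which elongates palmitate, measured 79.7, 78.7 and 101 CPM on day 3 and 1522, 1911 and 302 CPM on day 5. Even the lowest day 5 library exceeded the highest day 3 library, and the rise of 3.85 ± 0.75 (adjusted p = 0.00902) did not pass without day 3 replicate 2 (adjusted p = 0.0516). Fasn, the fatty acid synthase, averaged 678 ± 273 CPM on day 3 and measured 7370, 7816 and 2113 CPM on day 5. It rose by 3.09 ± 0.62 (adjusted p = 0.00989), and the call ended without day 3 replicate 1 (adjusted p = 0.053) or day 3 replicate 2 (adjusted p = 0.0577). Acly, which splits citrate into acetyl-CoA, rose by 2.95 ± 0.69 (adjusted p = 0.024) from 188 ± 99.9 to 1448 ± 467 CPM, and did not pass without day 3 replicate 1 (adjusted p = 0.107), day 3 replicate 2 (adjusted p = 0.113), day 5 replicate 1 (adjusted p = 0.0698) or day 5 replicate 2 (adjusted p = 0.0879). Pnpla3, a lipid droplet protein, had the largest fitted rise of the named genes, 5.17 ± 1.32 (adjusted p = 0.0374), but measured 0.753, 0.0248 and 5.6 CPM on day 3 and 88, 118 and 24.1 CPM on day 5. The days were separate, but the day 3 libraries spread widely, and Pnpla3 did not pass without day 3 replicate 1 (adjusted p = 0.145), day 3 replicate 2 (adjusted p = 0.123), day 5 replicate 1 (adjusted p = 0.0903) or day 5 replicate 2 (adjusted p = 0.118).

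Acacb and Acaca, the acetyl-CoA carboxylases, rose by 2.51 ± 0.43 (adjusted p = 0.00451) and 2.01 ± 0.48 (adjusted p = 0.0248). Among the regulators, Srebf1, which encodes SREBP-1c, measured 703, 718 and 655 CPM on day 3 and 1701, 1793 and 734 CPM on day 5 and rose by 1.03 ± 0.24 (adjusted p = 0.0191). Replicate 3 of day 5 stood just above day 3, and Srebf1 did not pass without day 3 replicate 1 (adjusted p = 0.0683), day 3 replicate 2 (adjusted p = 0.0673), day 3 replicate 3 (adjusted p = 0.0568), day 5 replicate 1 (adjusted p = 0.0968) or day 5 replicate 2 (adjusted p = 0.117). Mlxipl, which encodes ChREBP, rose by 0.57 ± 0.13 (adjusted p = 0.0187), and Mid1ip1, a partner of acetyl-CoA carboxylase, by 1.56 ± 0.25 (adjusted p = 0.00218). Of the members that did not pass, Gpam stood at 1.97 (adjusted p = 0.089), G6pdx at 1.34 (adjusted p = 0.277), Agpat2 at 0.60 (adjusted p = 0.0541) and Dgat1 at -0.01 (adjusted p = 0.969), all as log2 changes.

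**Figure D2:**
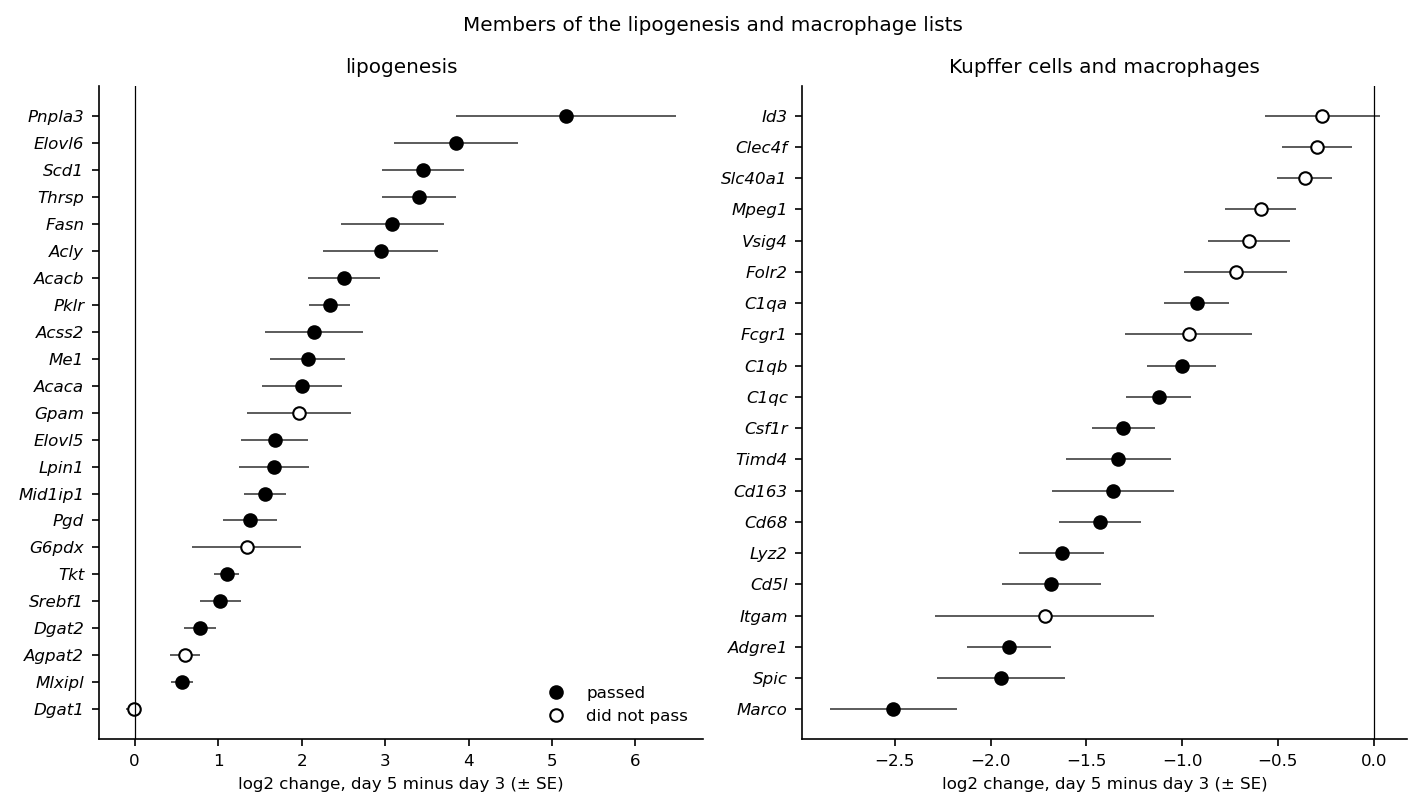
Log2 change from day 3 to day 5 with its standard error for tested lipogenesis genes (left, 1 of the 24 not drawn) and the 20 tested macrophage genes (right), with filled points for genes that passed. All but 1 of the lipogenesis genes drawn lie right of 0 and all 20 macrophage genes lie left of 0.

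The stretch before a start of Pklr is shown because it holds a match to the carbohydrate response element, the motif that ChREBP is known to bind, and because Pklr passed in every fit run. It is from RefSeq, build GRCm38.p6, lies inside the gene as GENCODE draws it, holds no GENCODE exon, and has the element in capitals.
Pklr, chr3:89136373-89136571, plus strand: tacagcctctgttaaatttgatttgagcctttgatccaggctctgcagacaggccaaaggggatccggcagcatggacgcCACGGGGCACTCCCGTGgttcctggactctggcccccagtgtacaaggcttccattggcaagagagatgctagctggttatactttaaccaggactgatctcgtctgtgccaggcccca
The pattern searched was CACGNGNNNNNCNCGTG on both strands, in windows from 250 bases before to 50 after each annotated start. It was found in 15 of 32851 windows (0.0457%), and the match in the Pklr window begins 170 bases before the start. Of 27 windows of lipogenesis genes, 3.7% held it, which is the Pklr window. A match describes the letters of the window and does not show that a factor was bound in these livers.

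Some genes of sugar and glycogen handling rose, while the list of gluconeogenesis and amino acid catabolism had as many negative as positive members. Khk, the fructokinase that starts fructose breakdown (GRCm38 chromosome 5, 30921431 to 30931248), measured 330.0, 319.9 and 257 CPM on day 3 and 1037, 1140 and 602 CPM on day 5. The days did not overlap, and Khk rose by 1.62 ± 0.21 (adjusted p = 0.000529). Gys2, the liver glycogen synthase, measured 87, 85.7 and 73.7 CPM on day 3 and 158, 179 and 122 CPM on day 5, and rose by 0.90 ± 0.13 (adjusted p = 0.000949) with separate groups. Fbp1, which catalyses a gluconeogenic step, measured 438, 460.2 and 390.5 CPM on day 3 and 752, 822 and 929 CPM on day 5 and rose by 0.96 ± 0.13 (adjusted p = 0.000485), with day 5 at the NC level of 756 ± 71.9 CPM or above it. These 3 genes passed in every fit run. Among 26 genes of gluconeogenesis and amino acid catabolism, 4 rose and none fell, with 13 positive and 13 negative and a median of 0.052: besides Fbp1 these were the transaminase Gpt2 at 0.91 (adjusted p = 0.00307), pyruvate carboxylase Pcx at 0.51 (adjusted p = 0.0101) and the glucose 6-phosphate transporter Slc37a4 at 0.72 (adjusted p = 0.0392). Pcx did not pass without day 3 replicate 1 (adjusted p = 0.0628), day 3 replicate 2 (adjusted p = 0.0677) or day 5 replicate 2 (adjusted p = 0.0648), and Slc37a4 did not pass without day 3 replicate 1 (adjusted p = 0.072), day 3 replicate 2 (adjusted p = 0.0671), day 3 replicate 3 (adjusted p = 0.128), day 5 replicate 1 (adjusted p = 0.137) or day 5 replicate 2 (adjusted p = 0.226).

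Genes that handle polyunsaturated fatty acids changed in part. Of 26 tested, 6 rose and none fell, with a median of 0.277. The count was 3 without day 3 replicate 1 or day 5 replicate 2 and 2 without day 3 replicate 2. Acsl4, an acyl-CoA synthetase that prefers arachidonate, measured 45, 43 and 54.3 CPM on day 3 and 86.4, 85.3 and 83.2 CPM on day 5. The days were separate, and the rise of 0.84 ± 0.14 (adjusted p = 0.00181) passed in every fit run. Lpcat3, which puts polyunsaturated chains into phospholipids, rose by 0.94 ± 0.18 (adjusted p = 0.00668), and Acsl5 rose by 1.20 ± 0.28 (adjusted p = 0.0204), which ended without day 3 replicate 1 (adjusted p = 0.0842), day 3 replicate 2 (adjusted p = 0.0942), day 5 replicate 1 (adjusted p = 0.0595) or day 5 replicate 2 (adjusted p = 0.0795). Elovl5, an elongase of polyunsaturated chains, measured 236, 216 and 249 CPM on day 3 and 638, 736 and 867 CPM on day 5. It rose by 1.68 ± 0.40 (adjusted p = 0.0231), although not without day 3 replicate 1 (adjusted p = 0.0842), day 3 replicate 2 (adjusted p = 0.0985), day 3 replicate 3 (adjusted p = 0.0538) or day 5 replicate 2 (adjusted p = 0.0732). The desaturases that limit the pathway did not pass: the log2 change was 0.78 (adjusted p = 0.158) for Fads1 and 0.47 (adjusted p = 0.519) for Fads2, and 0.13 (adjusted p = 0.87) for the elongase Elovl2. Elovl2 measured 290.2, 289 and 271 CPM on day 3 and 217, 224 and 492 CPM on day 5, so that replicate 3 of day 5 alone was above day 3. Without that library the Elovl2 change was -0.364 (adjusted p = 0.471).

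Of 28 eicosanoid and oxylipin enzyme genes, 3 fell and none rose. Ptgs1, the constitutive cyclooxygenase, measured 17.8, 19.3 and 14.9 CPM on day 3 and 9.92, 6.98 and 7.64 CPM on day 5 without overlap. Its fall of 1.08 ± 0.17 (adjusted p = 0.00112) passed in every fit run. Alox5ap, the activating protein of 5-lipoxygenase, fell by 1.19 ± 0.25 (adjusted p = 0.00876), and Hpgds, the haematopoietic prostaglandin D synthase, by 1.54 ± 0.43 (adjusted p = 0.0421), which ended without day 3 replicate 1 (adjusted p = 0.135), day 3 replicate 2 (adjusted p = 0.103), day 3 replicate 3 (adjusted p = 0.062), day 5 replicate 1 (adjusted p = 0.182) or day 5 replicate 2 (adjusted p = 0.105). Leukocytes also express Ptgs1, Alox5ap and Hpgds, and the part of cell numbers in these falls was not tested.

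Few genes of cholesterol, fatty acid oxidation and respiration passed, beside 3.19% of all genes that rose. Of 25 genes of cholesterol synthesis and uptake 3 rose, with a median of 0.790, among them Sc5d by 1.12 ± 0.30 (adjusted p = 0.0387) and Pmvk by 1.85 ± 0.49 (adjusted p = 0.0426). Sc5d did not pass without day 3 replicate 1 (adjusted p = 0.15), day 3 replicate 2 (adjusted p = 0.166), day 5 replicate 1 (adjusted p = 0.108), day 5 replicate 2 (adjusted p = 0.121) or day 5 replicate 3 (adjusted p = 0.053), and Pmvk did not pass without day 3 replicate 1 (adjusted p = 0.162), day 3 replicate 2 (adjusted p = 0.15), day 5 replicate 1 (adjusted p = 0.118) or day 5 replicate 2 (adjusted p = 0.126). Replicate 3 of day 3 decided the count, since 19 members rose without it. That library stood above the other day 3 libraries for Pmvk, which measured 12.9, 9.98 and 39.4 CPM on day 3 and 81.5, 77.4 and 65.9 CPM on day 5, and without overlap between the days. Among 37 genes of fatty acid oxidation and ketogenesis only the carnitine acetyltransferase gene Crat rose, by 1.49 ± 0.34 (adjusted p = 0.0181); it did not pass without day 3 replicate 1 (adjusted p = 0.0857), day 3 replicate 2 (adjusted p = 0.092), day 5 replicate 1 (adjusted p = 0.0677) or day 5 replicate 2 (adjusted p = 0.0895), and 7 members passed without day 3 replicate 3. Of 88 nuclear-encoded respiratory chain genes 7 rose and none fell, with a median of 0.171, among them Sdha of complex II at 0.48 (adjusted p = 0.0122). At most 2 genes of the list rose when day 3 replicate 1, 2 or 3 or day 5 replicate 1 or 2 was left out, and 12 rose without day 5 replicate 3. Sdha did not pass without day 3 replicate 1 (adjusted p = 0.07) or day 5 replicate 2 (adjusted p = 0.0625). None of the 15 mitochondrially encoded genes passed (median 0.224). By unadjusted p under 0.05 there were 3, and DESeq2 called none.

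**Figure D3:**
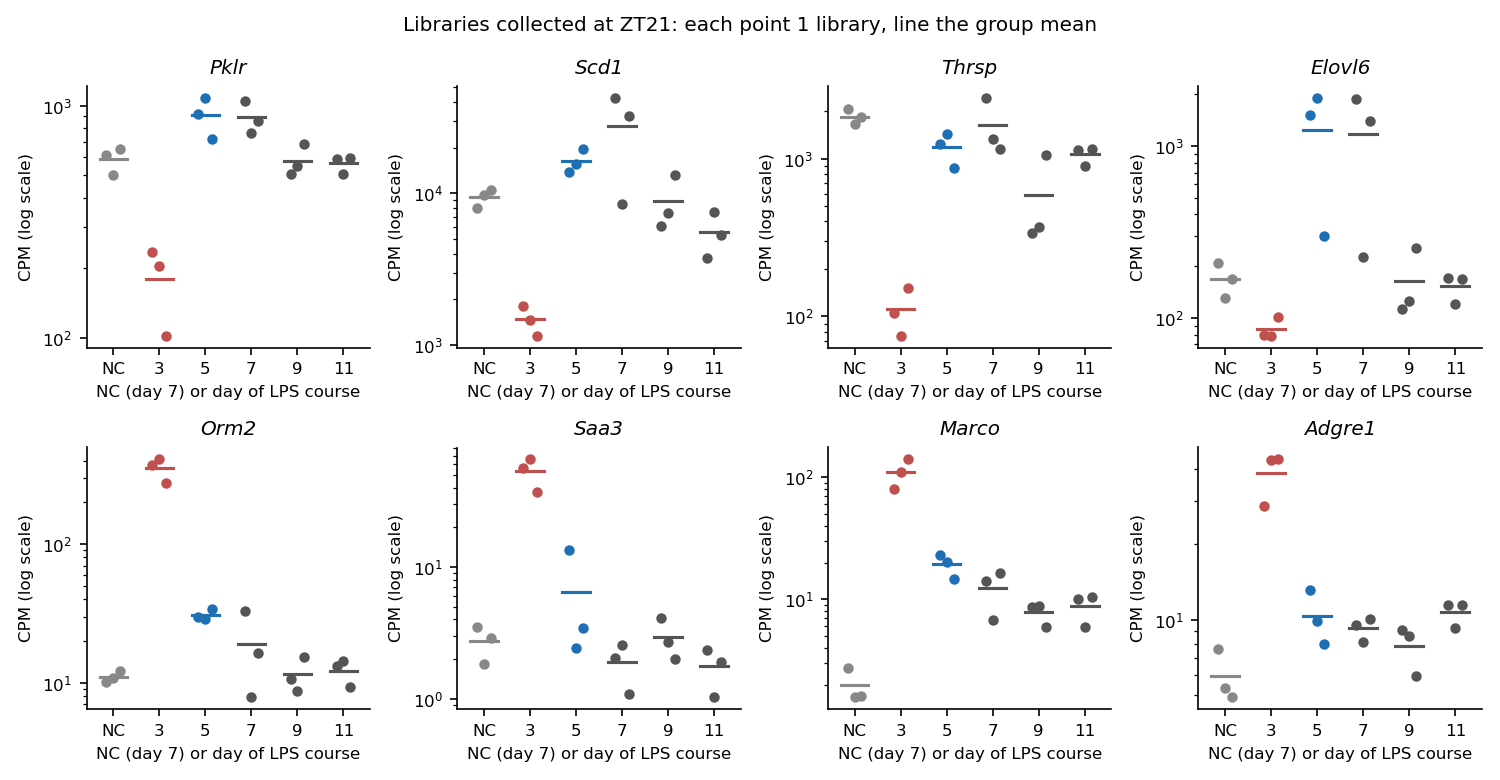
Levels in CPM on a log scale in the 18 libraries collected at ZT21, with NC livers of day 7 on the left and LPS livers by day, each point a library and each line a group mean. For Pklr, Scd1, Thrsp and Elovl6 all 3 libraries of day 3 lie below those of day 5, and for Orm2, Saa3, Marco and Adgre1 they lie above them.

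Macrophage genes were lower on day 5. Of 20 marker genes of Kupffer cells and macrophages, 12 fell and none rose, beside 2.72% of all genes that fell. All 20 had a negative log2 change, with a median of -1.22, and in 19 of them the libraries of the days did not overlap, which 12.4% of all genes showed in this direction. The summed level of the list was 1093 to 1274 CPM on day 3 and 543 to 612 CPM on day 5, against 358 to 521 CPM in NC livers of ZT21. In these bulk samples fewer macrophages and less of these transcripts per macrophage cannot be told apart. The count of members that fell stayed between 10 and 13 when any single library of the 2 days was left out. It was 8 with replicates 1 and 2 of each day summed into a single library.

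Marco, which encodes a macrophage receptor for bacteria and debris (GRCm38 chromosome 1, 120474538 to 120505024), measured 80.4, 110.5 and 139.5 CPM on day 3 and 23.2, 20.3 and 14.6 CPM on day 5. No library of day 5 reached day 3, yet both days were above NC (1.99 ± 0.675 CPM), with adjusted p of 9.35e-07 for day 3 and 0.00016 for day 5 against the same 3 NC libraries. Marco fell by 2.51 ± 0.33 (adjusted p = 0.000727) between the days. Adgre1, which encodes the macrophage surface protein F4/80 (GRCm38 chromosome 17, 57358691 to 57483527), measured 28.5, 43.5 and 43.9 CPM on day 3 and 13.1, 9.88 and 7.98 CPM on day 5 and fell by 1.90 ± 0.22 (adjusted p = 0.000235). The lowest day 3 library was above the highest day 5 library. Csf1r, the receptor for the macrophage growth factor CSF1, measured 98.3, 106 and 96.6 CPM on day 3 and 40.2, 37.6 and 43.9 CPM on day 5 and fell by 1.31 ± 0.16 (adjusted p = 0.000416). Its day 5 libraries were near the NC level of 34.9 ± 7.77 CPM. Lyz2, lysozyme of myeloid cells, measured 124, 149.8 and 154 CPM on day 3 and 53.5, 42.9 and 41.9 CPM on day 5 and fell by 1.63 ± 0.22 (adjusted p = 0.000683). These 4 genes passed in every fit run.

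Of the other members that passed, Spic, a transcription factor of red pulp macrophages and Kupffer cells, fell by 1.95 ± 0.34 (adjusted p = 0.00278), the secreted CD5L by 1.68 ± 0.26 (adjusted p = 0.0017), Cd68 by 1.43 ± 0.21 (adjusted p = 0.00101), Cd163, the receptor for haemoglobin bound to haptoglobin, by 1.36 ± 0.32 (adjusted p = 0.0183) and Timd4 by 1.33 ± 0.28 (adjusted p = 0.00871). The complement subunits made by macrophages fell as well, C1qc by 1.12 ± 0.17 (adjusted p = 0.00111), C1qb by 1.00 ± 0.18 (adjusted p = 0.00373) and C1qa by 0.93 ± 0.17 (adjusted p = 0.00458). Members that did not pass included the Kupffer cell lectin Clec4f at -0.30 (adjusted p = 0.4) and the complement receptor Vsig4 at -0.65 (adjusted p = 0.0894). Others were Folr2 at -0.72 (adjusted p = 0.133), the integrin Itgam at -1.72 (adjusted p = 0.0934), Mpeg1 at -0.59 (adjusted p = 0.074), Fcgr1 at -0.97 (adjusted p = 0.102), the iron exporter Slc40a1 at -0.36 (adjusted p = 0.158) and Id3 at -0.27 (adjusted p = 0.685). The difference between Clec4f and the members that passed was not tested.

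Markers of other blood-derived cells differed less clearly, and their counts stand beside 2.72% of all genes that fell. Summed markers of T and NK cells were 11.4 to 14.1 CPM on day 3 and 5.71 to 6.99 CPM on day 5, without overlap, and all 14 members were negative, but Nkg7 alone fell and it did not pass when any single library of the 2 days was left out. The neutrophil list was 58.8 to 93.9 CPM on day 3 and 29.3 to 61.2 CPM on day 5, with overlap, and of 13 tested only Csf3r, the receptor for G-CSF, fell, by 1.35 ± 0.23 (adjusted p = 0.00275), in every fit run. Its level was 8.8, 8.82 and 9.72 CPM on day 3 and 4.43, 3.17 and 3.15 CPM on day 5. Of 13 B and plasma cell genes 3 fell, among them Cd79b by 2.00 ± 0.46 (adjusted p = 0.0159) and Ms4a1 with a log2 change of -1.75 ± 0.49 (adjusted p = 0.0435). Cd79b did not pass without day 3 replicate 2 or day 5 replicate 2, and Ms4a1 did not pass when any single library of the 2 days was left out. The summed B and plasma cell list overlapped between the days (53.9 to 70.2 and 21 to 114 CPM). Of 9 monocyte genes 1 fell, with a median of -0.771, but the summed list did not fall, at 1272 to 1409 CPM on day 3 and 1316 to 1473 CPM on day 5. Most of that sum was fibronectin (Fn1), which hepatocytes also make and which measured 1249, 1377 and 1379 CPM on day 3 and 1296, 1459 and 1441 CPM on day 5. Of 14 sinusoidal endothelial genes 1 fell, Mrc1 by 0.68 ± 0.19 (adjusted p = 0.0415), which ended without day 3 replicate 1 (adjusted p = 0.089), day 3 replicate 2 (adjusted p = 0.176), day 5 replicate 1 (adjusted p = 0.131) or day 5 replicate 2 (adjusted p = 0.207), and the summed list was 370.4 to 435 CPM on day 3 and 286 to 326 CPM on day 5. Hepatocyte markers summed to 102200 to 123100 CPM on day 3 and 140800 to 142400 CPM on day 5, and among 14 of them only albumin (Alb) rose, by 0.59 ± 0.13 (adjusted p = 0.0106), though not without day 5 replicate 2 (adjusted p = 0.055). The hepatocyte list did not rise as a whole, with 7 members positive, 7 negative and a median of 0.002, and a sum weighs abundant transcripts most. The part of these cell types in the changes of other genes was not tested.

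Other genes, several of them expressed by leukocytes, fell as well. Cxcl13, a chemokine that attracts B cells, measured 10.3, 13.4 and 24.2 CPM on day 3 and 2.02, 2.37 and 3.22 CPM on day 5 and fell by 2.65 ± 0.41 (adjusted p = 0.00126). The groups did not overlap. Rassf4, an adaptor of the Ras association family, measured 13.3, 15.4 and 16.7 CPM on day 3 and 3.24, 3.04 and 3.91 CPM on day 5, and Igsf6, an immunoglobulin superfamily receptor of myeloid cells, measured 8.85, 9.91 and 9.28 CPM on day 3 and 1.96, 1.79 and 2.83 CPM on day 5. Both were separate between the days, and on day 5 neither passed against NC (adjusted p = 0.625 and 0.355), with falls between the days of 2.15 ± 0.22 (adjusted p = 7.4e-05) and 2.09 ± 0.31 (adjusted p = 0.000949). Tgfb1, transforming growth factor beta 1, measured 13.1, 15.6 and 13.4 CPM on day 3 and 6.05, 6.38 and 6.69 CPM on day 5 and fell by 1.14 ± 0.17 (adjusted p = 0.00111). The adaptor Fyb fell by 1.38 ± 0.18 (adjusted p = 0.000434), the arrestin Arrb2 by 0.87 ± 0.14 (adjusted p = 0.00165) and Kctd12 by 1.02 ± 0.15 (adjusted p = 0.000949). All 7 passed in every fit run.

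Some genes of the acute-phase list were lower on day 5. Of 35 acute-phase genes 5 fell and none rose, with a median of -0.408, and 32 had a negative change. Those that fell were Orm2, Saa1, Saa2, Saa3 and the co-receptor gene Cd14, which also stands among the LPS sensing genes below. Which cells gave these falls was not tested. Orm2, an orosomucoid (GRCm38 chromosome 4, 63362449 to 63365878), measured 373, 408 and 277 CPM on day 3 and 29.8, 28.9 and 34.2 CPM on day 5. Every day 5 library was far below every day 3 library and still above NC (11 ± 0.945 CPM; adjusted p = 0.0226). Orm2 fell by 3.51 ± 0.40 (adjusted p = 0.000416) and passed in every fit run. Saa3 measured 56.7, 65.5 and 37.3 CPM on day 3 and 13.5, 2.4 and 3.46 CPM on day 5. Saa1 measured 91.4, 119.7 and 136 CPM on day 3 and 13.9, 13.6 and 31.7 CPM on day 5. Saa2 measured 28.6, 36.2 and 56.1 CPM on day 3 and 7.73, 6.21 and 7.37 CPM on day 5. In each of these serum amyloid genes the days were separate, with falls of 3.04 ± 0.56 (adjusted p = 0.00668), 2.55 ± 0.36 (adjusted p = 0.00111) and 2.50 ± 0.56 (adjusted p = 0.0187). On day 5 Saa1 stood below the NC level of 56.4 ± 4.55 CPM (adjusted p = 0.0144). Orm and Saa genes have near-identical copies, so the split of reads among them is uncertain. When all 48 libraries shared 1 estimate of the spread, 1 of the 35 acute-phase genes passed, and Saa1, Saa2 and Saa3 had adjusted p of 0.263, 0.377 and 0.0946. Saa2 did not pass without day 5 replicate 1 (adjusted p = 0.0728) or day 5 replicate 2 (adjusted p = 0.0987), and without day 5 replicate 3 the count of members that fell was 10. Lcn2, lipocalin 2, did not pass, at -0.32 (adjusted p = 0.771), and measured 30.9, 29.8 and 55.9 CPM on day 3 and 37.3, 41.6 and 14.8 CPM on day 5 with overlap.

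The stretch upstream of Orm2 is shown for the palindrome of the C/EBP factors, known activators of acute-phase genes, in capitals (RefSeq, GRCm38.p6).
Orm2, chr4:63362199-63362448, plus strand: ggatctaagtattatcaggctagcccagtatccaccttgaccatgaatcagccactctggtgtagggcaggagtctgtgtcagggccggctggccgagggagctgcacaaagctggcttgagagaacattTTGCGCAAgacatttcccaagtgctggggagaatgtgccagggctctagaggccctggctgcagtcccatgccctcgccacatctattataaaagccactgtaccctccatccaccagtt
The letters TTGCGCAA stand 120 bases before the annotated start. They were found in 60 of 32851 windows (0.183%). The count was 2 of the 425 windows of genes that fell (0.471%) and 2 of the 515 windows of genes that rose (0.388%). The 32851 windows include genes not tested for a change between the days. These shares were not tested.

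Sensors of LPS and inflammatory signals fell in part. Of 22 LPS sensing genes 4 fell and none rose. Aoah, the acyloxyacyl hydrolase that detoxifies LPS, measured 4.88, 5.13 and 5.9 CPM on day 3 and 1.93, 1.38 and 1.72 CPM on day 5 and fell by 1.66 ± 0.29 (adjusted p = 0.00338), in every fit run. Irak3, a negative regulator of Toll-like receptor signalling, measured 3.94, 4.68 and 6.54 CPM on day 3 and 1.48, 1.44 and 1.27 CPM on day 5 and fell by 1.86 ± 0.26 (adjusted p = 0.000683). For both genes the lowest day 3 library was above the highest day 5 library. Tlr2 fell by 1.53 ± 0.30 (adjusted p = 0.00724) and the co-receptor Cd14 by 1.50 ± 0.37 (adjusted p = 0.0226), which ended without day 3 replicate 2 (adjusted p = 0.0591), day 3 replicate 3 (adjusted p = 0.0638), day 5 replicate 1 (adjusted p = 0.102) or day 5 replicate 2 (adjusted p = 0.0774). With all 48 libraries in the fit Irak3, Tlr2 and Cd14 did not pass (adjusted p = 0.0802, 0.108 and 0.261). Of 29 NF-kB targets and cytokines 5 fell, Cxcl13, Ccl5 by 1.47 ± 0.33 (adjusted p = 0.0151), Cxcl1 by 1.28 ± 0.26 (adjusted p = 0.00852), Vcam1 by 0.87 ± 0.23 (adjusted p = 0.0342) and Tnfaip2 by 0.55 ± 0.15 (adjusted p = 0.0413), and Birc3 rose by 0.60 ± 0.17 (adjusted p = 0.0462). Without day 3 replicate 2, day 5 replicate 1 or day 5 replicate 2 only 2 of the 29 fell, and with all 48 libraries 1. Of 44 interferon response genes 2 rose and none fell, near the 3.19% of all genes that rose and 2.72% that fell. Stat2 rose by 0.65 ± 0.12 (adjusted p = 0.00373) and Igtp by 1.23 ± 0.28 (adjusted p = 0.0188). Igtp did not pass without day 3 replicate 1 (adjusted p = 0.0612), day 3 replicate 2 (adjusted p = 0.0641), day 3 replicate 3 (adjusted p = 0.0622), day 5 replicate 1 (adjusted p = 0.0779) or day 5 replicate 2 (adjusted p = 0.0943).

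Core clock genes differed between days that carry the same ZT label. Of 19 tested, 5 rose and 2 fell, with a median of 0.603. The count that rose was 2 without day 3 replicate 2, day 5 replicate 1 or day 5 replicate 2. Bhlhe40, a repressor in the clock loop also called Dec1 (GRCm38 chromosome 6, 108660629 to 108666925), measured 35.9, 30.8 and 62.2 CPM on day 3 and 265, 328 and 141 CPM on day 5 and rose by 2.51 ± 0.30 (adjusted p = 0.000421). The lowest day 5 library was above the highest of day 3. Nr1d1, which encodes the repressor REV-ERB alpha (GRCm38 chromosome 11, 98767932 to 98775333), measured 72, 53.5 and 45.3 CPM on day 3 and 3.41, 2.76 and 10.5 CPM on day 5 and fell by 3.36 ± 0.47 (adjusted p = 0.00111). Day 3 was above NC (3.78 ± 1.49 CPM) and day 5 lay around it, and the gene overlaps Thra on the opposite strand, so that without a stated strand setting some reads may be Thra's. Bhlhe40 and Nr1d1 passed in every fit run.

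Cry1, the cryptochrome repressor that the study's title names (GRCm38 chromosome 10, 85131700 to 85185064), measured 24.5, 21.7 and 20.6 CPM on day 3 and 50.5, 61.7 and 28 CPM on day 5. Replicate 3 of day 5 lay close to day 3, without overlap. Cry1 rose by 1.07 ± 0.23 (adjusted p = 0.0117), from below NC (43.4 ± 8.4 CPM; adjusted p = 0.00809 for day 3) to near it (adjusted p = 0.81 for day 5). The call ended without day 3 replicate 2 (adjusted p = 0.056), day 5 replicate 1 (adjusted p = 0.0503) or day 5 replicate 2 (adjusted p = 0.0724). Per2 measured 14.2, 12 and 26.5 CPM on day 3 and 129.9, 132 and 23.2 CPM on day 5, so that replicate 3 of day 5 lay inside the range of day 3. Its rise of 2.44 ± 0.54 (adjusted p = 0.0181) ended without day 3 replicate 1 (adjusted p = 0.0824), day 3 replicate 2 (adjusted p = 0.0898), day 5 replicate 1 (adjusted p = 0.0717) or day 5 replicate 2 (adjusted p = 0.0814). Per1 measured 3.61, 2.13 and 2.44 CPM on day 3 and 12.3, 10.8 and 3.94 CPM on day 5 and rose by 1.72 ± 0.38 (adjusted p = 0.0154), without overlap but far below NC on both days (66.2 ± 4.48 CPM; adjusted p = 8.57e-06 and 0.000402). Its call ended without day 3 replicate 2 (adjusted p = 0.0809), day 5 replicate 1 (adjusted p = 0.0728) or day 5 replicate 2 (adjusted p = 0.0726). Nr1d2, which encodes REV-ERB beta, measured 16.2, 13 and 19.1 CPM on day 3 and 1.99, 3.04 and 8.3 CPM on day 5 and fell by 1.85 ± 0.40 (adjusted p = 0.0155), which ended without day 5 replicate 2 (adjusted p = 0.0895).

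Cry2, the other cryptochrome, did not pass, at 0.67 (adjusted p = 0.0602), but passed without day 5 replicate 3 (adjusted p = 0.000676). Arntl, which encodes BMAL1, measured 24.9, 28.4 and 24.6 CPM on day 3 and 34, 35.7 and 34.6 CPM on day 5. The groups did not overlap, but the change of 0.42 ± 0.38 (adjusted p = 0.6) did not pass. The log2 change was 0.16 (adjusted p = 0.634) for Clock and 0.69 (adjusted p = 0.761) for Npas2, the partners of BMAL1, and 0.14 (adjusted p = 0.93) for Rora. It was -1.04 (adjusted p = 0.312) for Dbp, 0.18 (adjusted p = 0.581) for Tef, 0.37 (adjusted p = 0.154) for Hlf and -0.04 (adjusted p = 0.955) for Nfil3, the factors that act on D-boxes. It was 1.10 (adjusted p = 0.257) for Per3, 0.61 (adjusted p = 0.539) for Bhlhe41 and 0.60 (adjusted p = 0.601) for Ciart, and none of these genes passed.

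**Figure D4:**
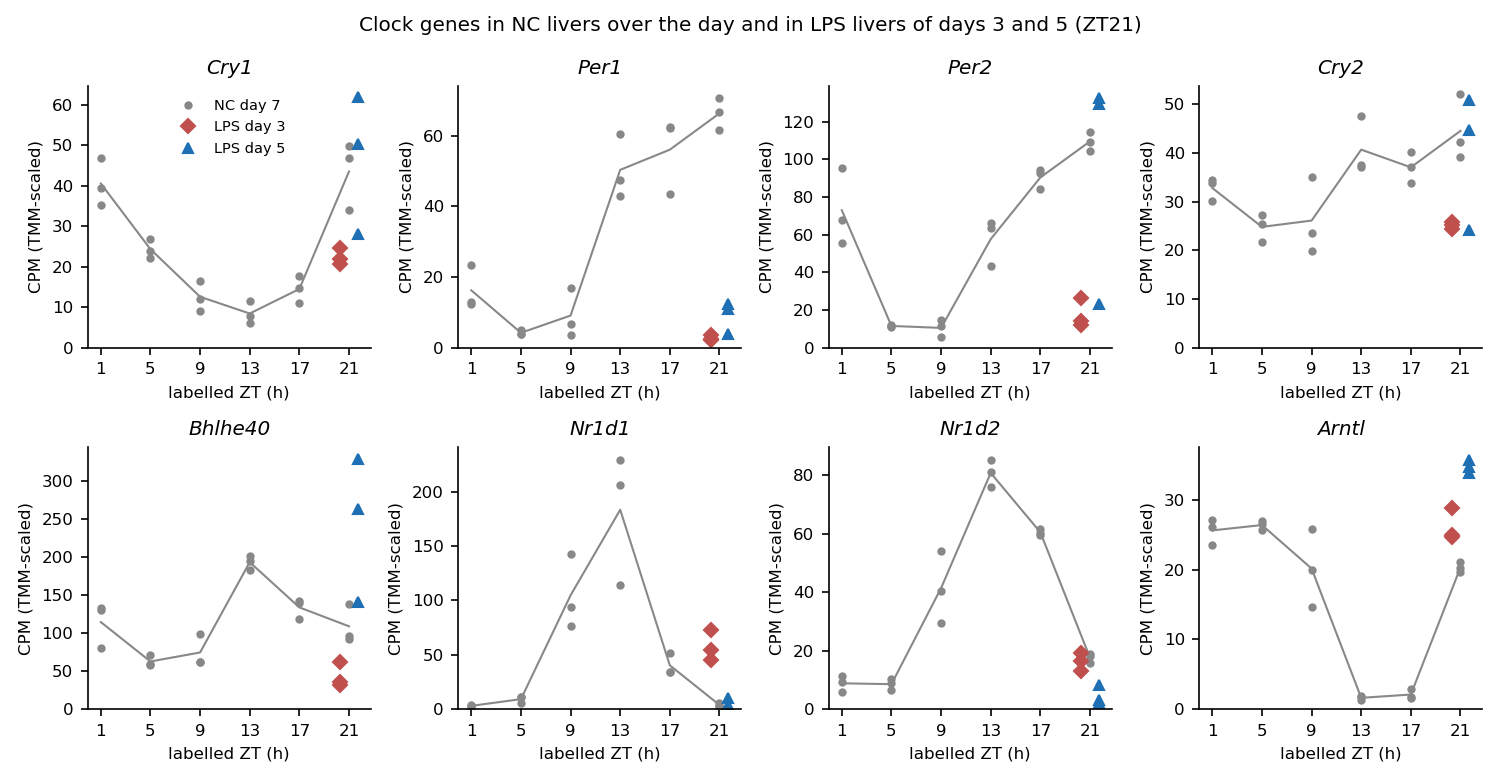
Levels of 8 clock genes in CPM (scaled over all 48 libraries, so slightly different from the values in the text) against labelled time: grey points and lines for single NC livers of day 7 and their means, red diamonds for LPS day 3 and blue triangles for LPS day 5, both labelled ZT21 and offset for clarity. The day 3 libraries lie far from the NC libraries of ZT21 for Per1, Per2 and Nr1d1.

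The upstream stretches of Cry1 and of the Per1 start that RefSeq places first are shown for the E-box, CACGTG, to which CLOCK and BMAL1 are known to bind, and for Per1 also the D-box, TTATGNAA, to which DBP, TEF and HLF bind. All are in capitals (RefSeq, GRCm38.p6). The stretches hold no GENCODE exon, and that of Per1 lies inside the gene as GENCODE draws it.
Cry1, chr10:85185065-85185304, minus strand: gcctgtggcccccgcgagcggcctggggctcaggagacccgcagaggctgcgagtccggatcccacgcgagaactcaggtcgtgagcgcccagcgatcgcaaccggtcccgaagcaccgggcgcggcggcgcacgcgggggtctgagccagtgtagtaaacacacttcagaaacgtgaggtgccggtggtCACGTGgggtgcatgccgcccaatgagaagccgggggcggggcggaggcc
Per1, chr11:69098699-69098947, plus strand: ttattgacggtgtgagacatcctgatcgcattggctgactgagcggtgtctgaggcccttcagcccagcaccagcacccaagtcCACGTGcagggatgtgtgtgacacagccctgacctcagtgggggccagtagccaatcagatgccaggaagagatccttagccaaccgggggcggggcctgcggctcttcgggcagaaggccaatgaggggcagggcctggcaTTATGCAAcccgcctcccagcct
The Cry1 E-box begins 60 bases before the start. In Per1 the E-box begins 166 bases and the D-box 24 bases before the start. Both strands were searched, and an E-box can also lie inside the carbohydrate response pattern. An E-box was found in 7.15% of all 32851 windows and in 11.5% of the 515 windows of genes that rose, and a D-box in 3.38% and 2.14%. For genes that fell, 8.71% of 425 windows held an E-box and 3.29% a D-box. All 32851 windows belong to 27025 genes and include genes not tested for a change between the days. Genes that rose or fell come only from the 16101 tested, so the shares have unlike bases. The shares were not compared by a test.

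The clock reading summarised these genes. Its mean was 6.8 ± 0.608 h on day 3 and 1.77 ± 1.59 h on day 5 (SD, n = 3 each), a difference of -5.03 h. The exact two-sided permutation test gave p = 0.1, which is the smallest that 3 against 3 allows, so this design cannot reach 0.05. The 3 day 5 readings were all earlier than the 3 day 3 readings. Leaving out any 1 of the 19 genes gave -5.4 to -4 h, and leaving out any 1 library -5.95 to -4.5 h. The NC libraries, each read on curves made without it, were placed within 0.55 h of their label in the median and within 3.1 h at most. A reading is the nearest point of the NC curves. The distance left there, the root mean square over the 19 genes in NC standard deviations, was 0.5, 0.63 and 0.49 on day 3. It was 0.76, 0.87 and 0.43 on day 5, and 0.42, 0.4 and 0.23 in NC livers of ZT21. An NC library of ZT13 reached 0.97. The accuracy found for NC libraries was not tested for LPS livers.

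Of 20 clock output genes 6 rose and none fell, with a median of 0.522. The count was 2 without day 3 replicate 1 or 2 or day 5 replicate 1 or 2. Besides Gys2 they were Rgs16, a regulator of G protein signalling, Tspan4, Ppard, Nampt and Lpin1. Tspan4 measured 28.9, 30.0 and 37.1 CPM on day 3 and 61, 72.9 and 44.8 CPM on day 5 and rose by 0.90 ± 0.15 (adjusted p = 0.00277), with separate groups. Rgs16 measured 3.69, 1.46 and 4.17 CPM on day 3 and 83, 202 and 8.22 CPM on day 5 and rose by 4.98 ± 1.25 (adjusted p = 0.0345), with 2 of the day 5 libraries far above the rest. That call did not hold without day 3 replicate 1 (adjusted p = 0.119), day 3 replicate 2 (adjusted p = 0.144), day 3 replicate 3 (adjusted p = 0.0713), day 5 replicate 1 (adjusted p = 0.0736) or day 5 replicate 2 (adjusted p = 0.141). Ppard, a nuclear receptor, rose by 1.10 ± 0.27 (adjusted p = 0.0237) and Nampt, which makes NAD, by 0.75 ± 0.19 (adjusted p = 0.0303), and neither passed without day 3 replicate 1 or 2 or day 5 replicate 1 or 2. Lpin1, a phosphatidate phosphatase, rose by 1.67 ± 0.42 (adjusted p = 0.0326) and did not pass without day 3 replicate 1 (adjusted p = 0.0977), day 3 replicate 2 (adjusted p = 0.124), day 3 replicate 3 (adjusted p = 0.0759), day 5 replicate 1 (adjusted p = 0.0937) or day 5 replicate 2 (adjusted p = 0.135). Fgf21, a hepatokine of nutrient stress, measured 1.04, 0.322 and 0.962 CPM on day 3 and 13.4, 14.1 and 1.06 CPM on day 5. Replicate 3 of day 5 was scarcely above the highest day 3 library, and its rise of 3.62 ± 0.90 (adjusted p = 0.0308) ended without day 3 replicate 1 (adjusted p = 0.09), day 3 replicate 2 (adjusted p = 0.132), day 3 replicate 3 (adjusted p = 0.0673), day 5 replicate 1 (adjusted p = 0.0953) or day 5 replicate 2 (adjusted p = 0.113). It stands among 25 fasting and feeding genes, of which 4 rose and none fell with a median of 0.163, the others being Srebf1, Pnpla3 and Lpin1. None of the 25 rose without day 3 replicate 1 or 2 or day 5 replicate 1 or 2.

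The mean clock readings of day 3 and day 5 lay nearest to ZT5 and ZT1 among the NC groups, although replicate 3 of day 3 (7.5 h) was nearer to ZT9 and replicate 3 of day 5 (3.6 h) nearer to ZT5. The change between the days was set beside the change between these times in NC livers. In a fit of all 48 libraries 79 of 16858 genes passed between NC ZT1 and NC ZT5 (0.469%), 59 higher and 20 lower at ZT1, and 1010 passed between LPS day 5 and day 3 (5.99%). A smaller number, 117 genes (0.694%), passed for the difference between the changes, 78 higher and 39 lower, and 168 passed with NC ZT1 minus ZT9 as the reference. The difference also carries the error of the NC libraries and so detects less. A gene that did not pass for it was therefore not shown to change alike in NC livers. Among the 951 genes that passed between the days, 653 (68.7%) had the same sign in NC livers, against 57.1% of 16098 genes in both fits. The absolute log2 change of these 951 genes had a median of 0.88 in LPS livers and 0.18 in NC livers. They were chosen by their change in LPS livers, which by itself makes the first median large. Over all 16098 genes in both fits the medians were 0.22 and 0.18. Across the 951 genes, which are not independent replicates, Pearson's r was 0.35, against 0.08 over all 16098. In NC, 10 of the 951 passed. Of the 951, 81 passed for the difference. The 117 became 45 without LPS day 3 replicate 1, 36 without day 3 replicate 2, 199 without day 3 replicate 3, 54 without LPS day 5 replicate 1, 36 without day 5 replicate 2 and 219 without day 5 replicate 3. Leaving out single NC libraries of ZT1 gave 33 without replicate 1 and 26 without replicate 3, and of ZT5 39 without replicate 1, 73 without replicate 2 and 43 without replicate 3. The 79 became 38 without NC ZT1 replicate 1, 23 without NC ZT1 replicate 3, and 22, 22 and 32 without NC ZT5 replicate 1, 2 and 3.

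Of 24 lipogenesis genes 8 passed for the difference between the changes, and of 20 macrophage genes 2, beside 0.694% of all genes. Some of the genes named here were taken by their small p in this same test, and Khk, Fyb and Kctd12 belong to neither list. The difference was 3.88 ± 0.59 (adjusted p = 0.00192) for Scd1, 1.51 ± 0.25 (adjusted p = 0.00607) for Khk, 3.64 ± 0.76 (adjusted p = 0.0156) for Elovl6, 1.10 ± 0.22 (adjusted p = 0.0115) for Tkt and 1.92 ± 0.47 (adjusted p = 0.0432) for Pklr, all on the log2 scale. For Adgre1 it was -2.13 ± 0.41 (adjusted p = 0.0105), for Fyb -1.50 ± 0.27 (adjusted p = 0.00924) and for Kctd12 -1.51 ± 0.29 (adjusted p = 0.00993). In NC livers the change from ZT5 to ZT1 was -0.43 (adjusted p = 0.777) for Scd1 and 0.22 (adjusted p = 0.864) for Adgre1. Thrsp did not pass for the difference, at 2.53 ± 0.85 (adjusted p = 0.168), nor did Marco, at -2.06 ± 1.02 (adjusted p = 0.425), or Orm2, at -3.66 ± 1.42 (adjusted p = 0.26). Of the clock genes, Bhlhe40 passed for the difference, at 1.63 ± 0.38 (adjusted p = 0.0332). Cry1, Per1, Per2 and Nr1d1 did not, at 0.33 ± 0.36 (adjusted p = 0.814), -0.24 ± 0.75 (adjusted p = 0.956), -0.23 ± 0.59 (adjusted p = 0.941) and -1.73 ± 0.68 (adjusted p = 0.272). For Per2 the change in NC livers was 2.67 (adjusted p = 0.00141) and between the LPS days 2.44 (adjusted p = 0.0181). NC ZT1 and ZT5 were chosen by the clock reading, which these clock genes entered. A likeness between the changes of clock genes was therefore partly built in and is not a separate result.

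**Figure D5:**
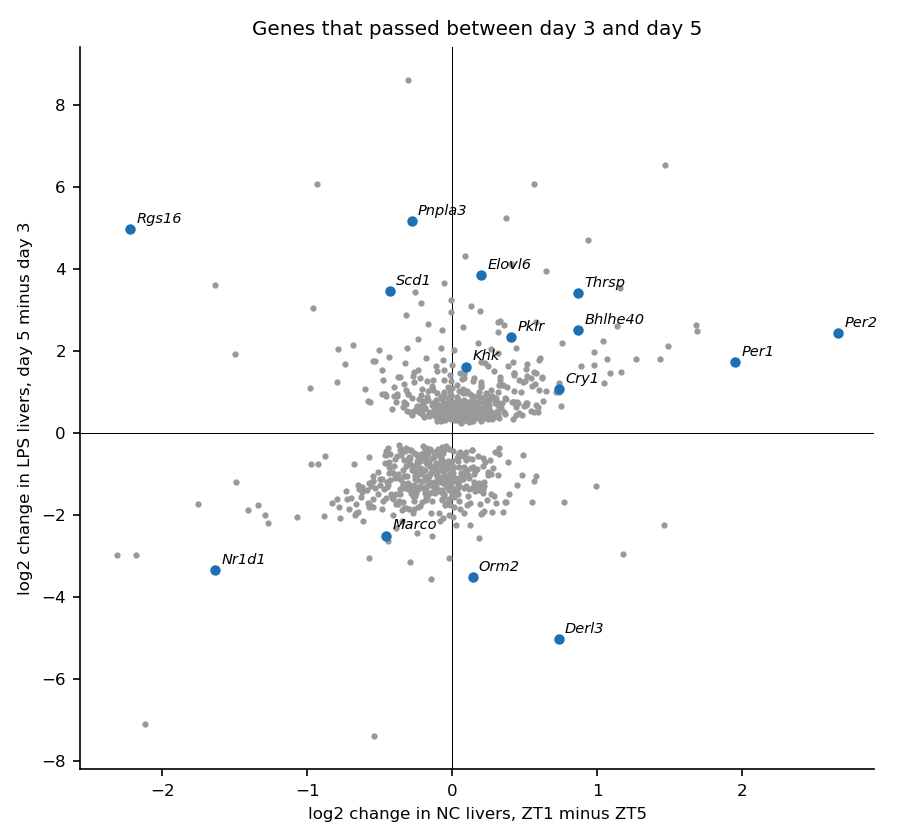
Log2 change from LPS day 3 to day 5 (vertical) against the log2 change from NC ZT5 to ZT1 (horizontal) for the 951 genes that passed between the days, with selected genes named. Most points spread vertically around a horizontal value near 0 (median absolute change 0.88 against 0.18), while Per1, Per2 and Nr1d1 lie away from 0 on both axes. The genes were chosen by their vertical change, and over all 16098 genes in both fits the medians were 0.22 and 0.18. ZT1 and ZT5 were chosen by a reading that used the clock genes.

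Genes with a 24 h rhythm in NC livers were common among those that changed. A cosine fit to the 18 NC libraries called 31.4% of the 15638 genes tested in both fits rhythmic at an adjusted p of at most 0.05 (edgeR's quasi-likelihood test). The share was 50.5% of 941 genes that passed between the days, 57.7% of 508 that rose and 42.0% of 433 that fell. These shares were not tested, since genes are not independent replicates.

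Several further genes had large changes. Derl3, a component of endoplasmic reticulum-associated degradation that plasma cells and secretory cells express (GRCm38 chromosome 10, 75893413 to 75895941), measured 26.6, 16.2 and 52.6 CPM on day 3 and 1.85, 0.304 and 0.766 CPM on day 5. The days were separate, and Derl3 fell by 5.03 ± 0.89 (adjusted p = 0.00583). Among 28 genes of the endoplasmic reticulum stress response none fell, and Ern1, the sensor IRE1, rose by 0.69 ± 0.16 (adjusted p = 0.0184), though not without day 3 replicate 1 (adjusted p = 0.0663), day 3 replicate 2 (adjusted p = 0.0563), day 3 replicate 3 (adjusted p = 0.0536) or day 5 replicate 2 (adjusted p = 0.0863). Tcim, a small regulator of Wnt signalling, measured 8.12, 8.35 and 10.8 CPM on day 3 and 60.6, 81.2 and 28.7 CPM on day 5 and rose by 2.64 ± 0.30 (adjusted p = 0.000376). Kcnj10, a potassium channel, measured 4.31, 5.18 and 5.01 CPM on day 3 and 0.54, 0.883 and 1.61 CPM on day 5 and fell by 2.25 ± 0.32 (adjusted p = 0.000814). Loxl4, a lysyl oxidase of the extracellular matrix, measured 6.18, 8.32 and 5.9 CPM on day 3 and 25, 29.9 and 22.3 CPM on day 5. It was above NC (1.01 ± 0.178 CPM) on both days, with adjusted p of 0.000107 and 5.23e-06, and rose by 1.92 ± 0.32 (adjusted p = 0.00264). Tfrc, the transferrin receptor, measured 14.8, 18.7 and 18.8 CPM on day 3 and 46, 47.9 and 28.7 CPM on day 5 and rose by 1.23 ± 0.20 (adjusted p = 0.00189). Derl3, Tcim, Kcnj10, Loxl4 and Tfrc passed in every fit run. Enho, which encodes the secreted peptide adropin, measured 52.9, 50.3 and 29.4 CPM on day 3 and 6.62, 7.12 and 12.7 CPM on day 5 and fell by 2.32 ± 0.55 (adjusted p = 0.0262), but not without day 3 replicate 1 (adjusted p = 0.0826), day 3 replicate 2 (adjusted p = 0.0841), day 5 replicate 1 (adjusted p = 0.115) or day 5 replicate 2 (adjusted p = 0.131). Aacs, which activates acetoacetate for lipid synthesis, rose by 2.71 ± 0.53 (adjusted p = 0.00896), which ended without day 3 replicate 1 (adjusted p = 0.0507) or day 3 replicate 2 (adjusted p = 0.0504). Onecut1, a liver transcription factor, rose by 2.63 ± 0.67 (adjusted p = 0.0361) and did not pass without any of the 6 libraries in turn.

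Of 36 proteasome genes 6 fell and none rose. In all, 33 of the 36 had a negative change, with a median of -0.280. Psma7, a subunit of the core particle, measured 82.8, 78.9 and 106 CPM on day 3 and 60.2, 53.6 and 62.5 CPM on day 5 and fell by 0.60 ± 0.12 (adjusted p = 0.00558), in every fit run. Psmb7 fell by 0.44 ± 0.11 (adjusted p = 0.0236) and Psma5 by 0.54 ± 0.15 (adjusted p = 0.0388). Only 1 of the 36 fell without day 3 replicate 3, day 5 replicate 1 or day 5 replicate 2, and 4 fell without day 3 replicate 1 or 2. Of 23 immediate early genes 4 rose and 2 fell. Junb measured 47, 36.9 and 37.5 CPM on day 3 and 16.5, 13 and 13.5 CPM on day 5 and fell by 1.50 ± 0.22 (adjusted p = 0.00111), while Dusp1, a phosphatase of MAP kinases, measured 17.4, 19.4 and 20.1 CPM on day 3 and 49.6, 55.3 and 45.1 CPM on day 5 and rose by 1.40 ± 0.24 (adjusted p = 0.00307). Both were separate between the days. Klf10 rose by 2.47 ± 0.44 (adjusted p = 0.00597), Jund by 0.82 ± 0.17 (adjusted p = 0.00774) and Jun by 2.24 ± 0.47 (adjusted p = 0.0128), and Ier2 fell by 0.55 ± 0.13 (adjusted p = 0.0191). Junb and Jund thus changed in opposite directions. Of 24 glucocorticoid-responsive genes Per1 and Dusp1 rose.

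Other lists held few calls, to be read beside 3.19% of all genes that rose and 2.72% that fell. Of 24 genes of bile acid synthesis and transport 2 fell, the exporter Abcc2 by 0.46 ± 0.12 (adjusted p = 0.0353) and the sterol transporter Abcg5 by 1.44 ± 0.38 (adjusted p = 0.0387). Neither passed without day 3 replicate 1 or 2 or day 5 replicate 1 or 2, whereas 7 of the list fell without day 5 replicate 3. Of 35 conjugating enzymes 4 rose, Ugt2a3 by 0.58 ± 0.12 (adjusted p = 0.00989), Gsta3 by 0.74 ± 0.16 (adjusted p = 0.00995), Gstm1 by 0.79 ± 0.19 (adjusted p = 0.0188) and Gstt1 by 0.52 ± 0.15 (adjusted p = 0.0472), families whose near-identical members make the read split uncertain. Ugt2a3 did not pass without day 5 replicate 2 (adjusted p = 0.0502), and Gsta3, Gstm1 and Gstt1 did not pass without day 3 replicate 1 or 2 or day 5 replicate 1 or 2. Among 18 negative acute-phase genes, which hepatocytes reduce in inflammation, Alb and Tmem25 rose and Ahsg, fetuin A, fell. Tmem25 did not pass when any single library of the 2 days was left out. Ahsg fell by 0.55 ± 0.14 (adjusted p = 0.0309), which ended without day 3 replicate 1 (adjusted p = 0.122), day 3 replicate 2 (adjusted p = 0.0891), day 5 replicate 1 (adjusted p = 0.123) or day 5 replicate 2 (adjusted p = 0.126). Of 26 heat shock and cold-inducible genes Hspa4l and Fkbp4 rose, by 0.99 ± 0.21 (adjusted p = 0.0113) and 0.74 ± 0.18 (adjusted p = 0.02), and Cirbp and Hspb8 fell, by 0.76 ± 0.18 (adjusted p = 0.0216) and 0.46 ± 0.13 (adjusted p = 0.0416). None of these 4 passed without day 3 replicate 2, day 5 replicate 1 or day 5 replicate 2. Of 24 NRF2 targets haem oxygenase Hmox1 fell, by 0.83 ± 0.19 (adjusted p = 0.0161), but not without day 3 replicate 2 (adjusted p = 0.0678), and the glutathione transferase Gstm1 rose. Of 31 iron and haem genes Tfrc rose and Hmox1 fell.

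In 18 stellate cell and fibrosis genes Ecm1, Reln and Bmp10 rose, by 0.52 ± 0.11 (adjusted p = 0.00959), 0.56 ± 0.14 (adjusted p = 0.0229) and 0.92 ± 0.24 (adjusted p = 0.0309), and Tgfb1 fell. Ecm1, Reln and Bmp10 did not pass without day 3 replicate 2, nor did Reln and Bmp10 without day 3 replicate 3 or day 5 replicate 2, or Bmp10 without day 3 replicate 1 or day 5 replicate 1. Of 10 cholangiocyte genes Onecut1 rose and Tff3 fell, by 1.85 ± 0.46 (adjusted p = 0.0255), and the latter did not pass without day 3 replicate 1 (adjusted p = 0.0553), day 3 replicate 3 (adjusted p = 0.0903), day 5 replicate 1 (adjusted p = 0.0953) or day 5 replicate 2 (adjusted p = 0.0585). No gene passed among 29 drug-metabolising P450 genes and regulators, 42 major urinary protein and growth-hormone-patterned genes, 41 complement and coagulation genes, 42 DNA replication and mitosis genes, 76 cytosolic ribosomal protein genes and 10 blood and platelet genes, by edgeR's quasi-likelihood test. In the same order the median log2 change was -0.028, 0.180, -0.005, -0.312, 0.016 and 0.006. At an unadjusted p under 0.05 the lists held 8, 4, 8, 1, 1 and 0 genes, and DESeq2 called 3 P450 genes lower, 1 urinary protein or growth-hormone-patterned gene higher, 4 complement and coagulation genes lower and none in the other lists. Mup20, a male urinary protein, measured 1351, 830.3 and 848 CPM on day 3 and 551, 631 and 2297 CPM on day 5, with overlap and the highest value in replicate 3 of day 5. Of markers of pancreas, kidney, gut, muscle and fat, 3 reached the filter, none passed in edgeR or DESeq2 (0 at an unadjusted p under 0.05), and 2 were at 0 counts in all 6 libraries.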

How the data were processed

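Per the labels' protocols, poly(A) RNA of whole liver was made into strand-marked libraries and read as pairs. The authors deposited raw whole-number counts for each gene symbol in 1 table of all libraries. Tools listed in the submitters' processing notes are STAR 2.5.2b, StringTie 2.2.1, SAMtools 1.3.1, DESeq2 1.38.1 and FastQC 0.11.5, with build GRCm38. The role of each, the counter and its strand setting were not stated in the sources used here. The 18 ZT21 libraries were fitted with edgeR 4.0.16 (R 4.3.3, filterByExpr, TMM, robust quasi-likelihood, 1 mean per group, 12 residual degrees of freedom), with Benjamini-Hochberg adjustment at 0.05. Comparisons with NC ZT1 and ZT5 used all 48 libraries (32 residual degrees of freedom). Clock time came from least squares of 19 genes on 24 h and 12 h curves of 18 NC libraries, on a grid of 0.1 h. CPM are TMM-scaled. The procedure was tested on simulated data. Gene positions are from GENCODE M21. Members and lists were chosen with earlier results of these data known. Named genes were the 12 largest rises and falls that passed with separate libraries, a mean log2 CPM of at least 1 and no predicted symbol, all clock genes, up to 4 members per list that passed (or the 1 with the smallest p), Fads1, Fads2, Elovl2, Elovl5, Saa1, Saa2, Lcn2 and Mup20, and the 8 smallest p-values of the difference between changes. Some genes the rule took are not reported here. Figures were drawn with matplotlib 3.10.9.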

Additional observations from a re-analysis of the deposited data

How the results depend on the processing

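The count of 951 genes was 1491 by DESeq2 1.42.0 (756 lower), 138 with replicates 1 and 2 of each day summed (51 higher, 87 lower) and 1570 without replicate 3 of both days (822 higher, 748 lower), the last chosen after seeing the data. The 6 libraries alone gave 318 higher. Leaving out 1 library gave 337 to 1491 genes, 164 to 752 higher and 173 to 739 lower. RLE scaling gave 917, no filter 764, and the fit without 2 LPS libraries of day 7, also added later, 1221. DESeq2 called 236 genes between NC ZT1 and ZT5 and 312 for the difference between changes. The latter was 63 without a filter, 277 from 12 libraries alone and 222 against NC ZT21 minus ZT1. Leaving out 1 library gave 22 to 86 and 26 to 219. The clock difference stayed within -5.95 and -4 h. At a threshold of 0.01, 32.4% of the genes that passed were rhythmic in NC. Deviations of same-numbered libraries of days 3 and 5 from their group means had correlations of -0.08, -0.08 and -0.15. With 3 libraries a group these cannot settle whether the numbers pair samples, and the labels used here do not say. With a replicate block 988 genes passed, 885 of them among the 951, and 150 for the difference between changes. Of 110 named genes that passed, 32 kept the call in every fit and none changed direction. Direction turned for genes without a call: Nfil3 was 0.032 with replicates summed and -0.107 to 0.004 with 1 library left out, Vil1 -1.411 to 0.485, Lcn2 -0.576 to 0.04, Elovl2 -0.364 to 0.335 and Mup20 -0.773 to 0.536. In Nfil3 the sign turned without day 3 replicate 2, in Vil1 without day 3 replicate 3, in Lcn2 without replicate 3 of either day, and in Elovl2 and Mup20 without day 5 replicate 3. Without replicate 3 of both days Vil1 was at 0.366, Lcn2 at 0.377, Elovl2 at -0.395 and Mup20 at -0.885. The causes were not tested.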

Other observations

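Glycolysis, fructose and glycogen genes were put in a list after their values were seen, so it has no test. Of 44 tested 17 were higher on day 5 by edgeR's quasi-likelihood test adjusted over all genes and none lower (median log2 change 0.418), beside 3.19% of all genes that rose. Pdk1, which inhibits pyruvate dehydrogenase, measured 29.1, 31.3 and 29.5 CPM on day 3 and 107, 115 and 88.2 CPM on day 5, a rise of 1.79 ± 0.16 (adjusted p = 4.62e-05). Ppp1r3b, which targets a phosphatase to glycogen, measured 179, 175 and 253 CPM on day 3 and 681, 724 and 469.9 CPM on day 5 and rose by 1.63 ± 0.16 (adjusted p = 7.4e-05). The days did not overlap for Pdk1 or Ppp1r3b. Tkfc, which phosphorylates glyceraldehyde from fructose, rose by 1.51 ± 0.27 (adjusted p = 0.0047), enolase Eno1 by 1.06 ± 0.14 (adjusted p = 0.000421) and Gpi1 by 1.41 ± 0.29 (adjusted p = 0.00902). A list of 8 pentose phosphate genes was added beside the glycolysis list and likewise has no test. Of these 8 genes 3 rose and none fell (median 0.657), among them Rpia by 1.96 ± 0.38 (adjusted p = 0.00674).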
